A study of Homo sapiens with 16 samples.

Results

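The genes described here are 9 regulators of the INK4A locus. They are 8 subunits of the Polycomb repressive complexes (CBX2, CBX6, CBX7, CBX8, BMI1, RNF2, EED and SUZ12) and KDM6B, a demethylase that works against them. They were taken by symbol from a fixed list, which was drawn up with earlier results of these data known. All 9 were found among the 62069 genes in the file, and all 9 were among the 13526 genes that passed the filter on low counts. The 16 libraries are from IMR90 ER:RAS cells, in 4 groups of 4.

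IMR90 is a line of human lung fibroblasts. In ER:RAS, oncogenic RAS is joined to part of the oestrogen receptor, and adding 4-hydroxytamoxifen (4OHT) switches its signalling on, which drives such cells into senescence. EV cells carried an empty vector and are labelled non-senescent. Their treatment label names no 4OHT, but the protocol and day given for all samples are those of 4OHT, so EV is taken as untreated from that label alone. EV_4OHT cells carried the same vector, were given 4OHT at 100 nM and are labelled senescent. The groups shAHCY_2 and shAHCY_4 were given 4OHT and carried one of 2 hairpins against AHCY, which clears S-adenosylhomocysteine, a by-product and inhibitor of methylation. All groups are at passage 15 and day 6. No group received 4OHT without ER:RAS, so 4OHT itself and RAS cannot be told apart. No group carried a hairpin against another target, so loss of AHCY and carrying a hairpin cannot be told apart. Both hairpin groups were given 4OHT, so hairpin effects that need RAS cannot be told from those that do not. Nothing in the labels says that libraries stem from different cultures, and p-values therefore measure the spread of these libraries alone, which can be technical.

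Polycomb proteins keep genes silent through marks on histones. Polycomb repressive complex 2 (PRC2), built from the enzyme EZH2 or EZH1 with EED and SUZ12, trimethylates histone H3 at a lysine of its tail. Canonical PRC1 binds that mark through a CBX protein and ubiquitinates histone H2A through RNF2, which works together with a PCGF protein such as BMI1. KDM6B, also called JMJD3, removes the PRC2 mark. In dividing fibroblasts both complexes are known to silence the INK4A locus, which encodes the cell cycle inhibitor p16 in CDKN2A, and that silencing is known to be lost in senescence.

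Promoter sequence was at hand for 7 of the 9 genes, as 9 windows from RefSeq on GRCh38.p14, whereas the counts rest on an earlier build. CBX2 and CBX8 had no window. Each window was searched on both strands for E2F letters (TTTCCCGC, TTTCGCGC, TTTGGCGC or TTTGCCGC), the E-box CACGTG, the CCAAT box CCAAT, the GC box GGGCGG, the AP-1 letters TGACTCA and the CRE letters TGACGTCA. The 4 windows below are those of CBX6 and KDM6B, whose levels were higher with 4OHT, SUZ12, which held the E2F letters, and BMI1, which like CBX6 held an E-box. Each runs over the 250 bases before the start, on the strand of the gene, with E2F letters and E-boxes in capitals.
CBX6, chr22:38872217-38872466, minus strand: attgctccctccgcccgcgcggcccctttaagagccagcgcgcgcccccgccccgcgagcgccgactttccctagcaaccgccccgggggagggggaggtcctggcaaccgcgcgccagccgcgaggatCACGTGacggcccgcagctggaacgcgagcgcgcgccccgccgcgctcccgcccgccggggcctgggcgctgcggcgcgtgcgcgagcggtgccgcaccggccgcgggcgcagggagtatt
KDM6B, chr17:7833967-7834216, plus strand: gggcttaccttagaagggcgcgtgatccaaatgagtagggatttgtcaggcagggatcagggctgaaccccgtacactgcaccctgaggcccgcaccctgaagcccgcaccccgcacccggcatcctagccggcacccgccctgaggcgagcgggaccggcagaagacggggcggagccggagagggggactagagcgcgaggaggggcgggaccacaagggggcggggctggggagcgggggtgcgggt
SUZ12, chr17:31936757-31937006, plus strand: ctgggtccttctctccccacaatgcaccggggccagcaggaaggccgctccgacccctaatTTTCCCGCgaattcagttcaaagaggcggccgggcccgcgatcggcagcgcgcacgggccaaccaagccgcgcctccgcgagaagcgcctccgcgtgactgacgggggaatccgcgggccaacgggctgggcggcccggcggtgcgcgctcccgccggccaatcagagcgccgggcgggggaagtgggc
BMI1, chr10:22320849-22321098, plus strand: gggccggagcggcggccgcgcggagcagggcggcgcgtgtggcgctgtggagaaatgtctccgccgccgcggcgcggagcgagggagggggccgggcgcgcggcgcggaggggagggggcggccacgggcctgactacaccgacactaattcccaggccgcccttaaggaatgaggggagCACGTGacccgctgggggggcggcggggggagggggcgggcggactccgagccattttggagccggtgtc
The E-box began at position -121 from the start in CBX6 and at position -70 in BMI1. The E2F letters TTTCCCGC began at position -189 in SUZ12. Over the full windows of 300 bases, which add 50 bases after the start, GC boxes numbered 4 in CBX6, 5 in KDM6B, 3 in SUZ12 and 6 in BMI1. KDM6B and BMI1 each have a second window, with 0 and 5 GC boxes. AP-1 and CRE letters were found in 0 of the 9 windows, and no motif overlapped one of another kind. Overlapping GC boxes were counted separately, as for the pair that began at positions -37 and -33 in BMI1. Among all 35116 promoter windows of that length, E2F letters were found in 3.31%, the E-box in 7.26%, the CCAAT box in 34.6%, the GC box in 45.0%, the AP-1 letters in 4.95% and the CRE letters in 1.85%. A match describes letters and does not show binding.

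Total counts ran from 8236199 to 18235787 per library. AHCY was measured first, as the target of the hairpins: its level in EV was 114 ± 11.3 CPM (counts after all libraries were scaled to 1 size; mean ± SD over 4 libraries, as throughout). In EV_4OHT it was 164 ± 8.08 CPM, and the hairpins left 18.5 ± 4.54 CPM (shAHCY_2) and 14.7 ± 2.19 CPM (shAHCY_4). Of the 9 fibroblast markers, none was under 1 CPM in all 16 libraries. Their summed level ran from 10695 to 12369 CPM in EV and 4827 to 4998 in EV_4OHT. It ran from 4921 to 5407 CPM with shAHCY_2 and 4809 to 5436 with shAHCY_4. The summed level of 5 epithelial markers reached 3.97 CPM at most, of 5 endothelial markers 7.40 and of 5 immune cell markers 1.13; 1, 2 and 2 of these markers were at 0 in every library. Of the 10 proliferation markers, all 10 fell in EV_4OHT against EV (edgeR, adjusted p under 0.05), beside 26.8% of all genes. With each hairpin 9 rose against EV_4OHT, beside 3.91% of all genes with shAHCY_2 and 7.58% with shAHCY_4. The summed level of these markers ran from 909 to 1039 CPM in EV and 216 to 236 in EV_4OHT. It ran from 355 to 401 CPM with shAHCY_2 and 357 to 389 with shAHCY_4. The libraries EV replicate 51 and shAHCY_2 replicate 59 stood apart: their deviation from the other libraries fell with the GC content of genes (Spearman's rho across genes -0.266 and -0.535, against -0.118 to 0.281 in the other 14). Results below are given with and without them where they rest on them.

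In senescence, 3 of the 9 genes changed. CBX2 fell to 26.4% of its EV level, CBX6 rose to 138% and KDM6B rose to 219%, while BMI1 had the same mean in both groups to 3 digits. Among all genes, 53.5% passed the threshold of 0.05 on the adjusted p in this comparison, 26.7% higher and 26.8% lower, so 3 of 9 is not a high share. The adjusted p is from edgeR's quasi-likelihood test with Benjamini-Hochberg adjustment over the 13526 genes, here and below. The median log2 fold change was -0.26 over the 9 genes and -0.02 over all genes. With upper-quartile factors or with the GC trend removed, 2 were higher and 3 lower, and with library totals alone 2 were higher and 5 lower; that last scaling moved the median of all genes to -0.13.

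**Figure D1:**
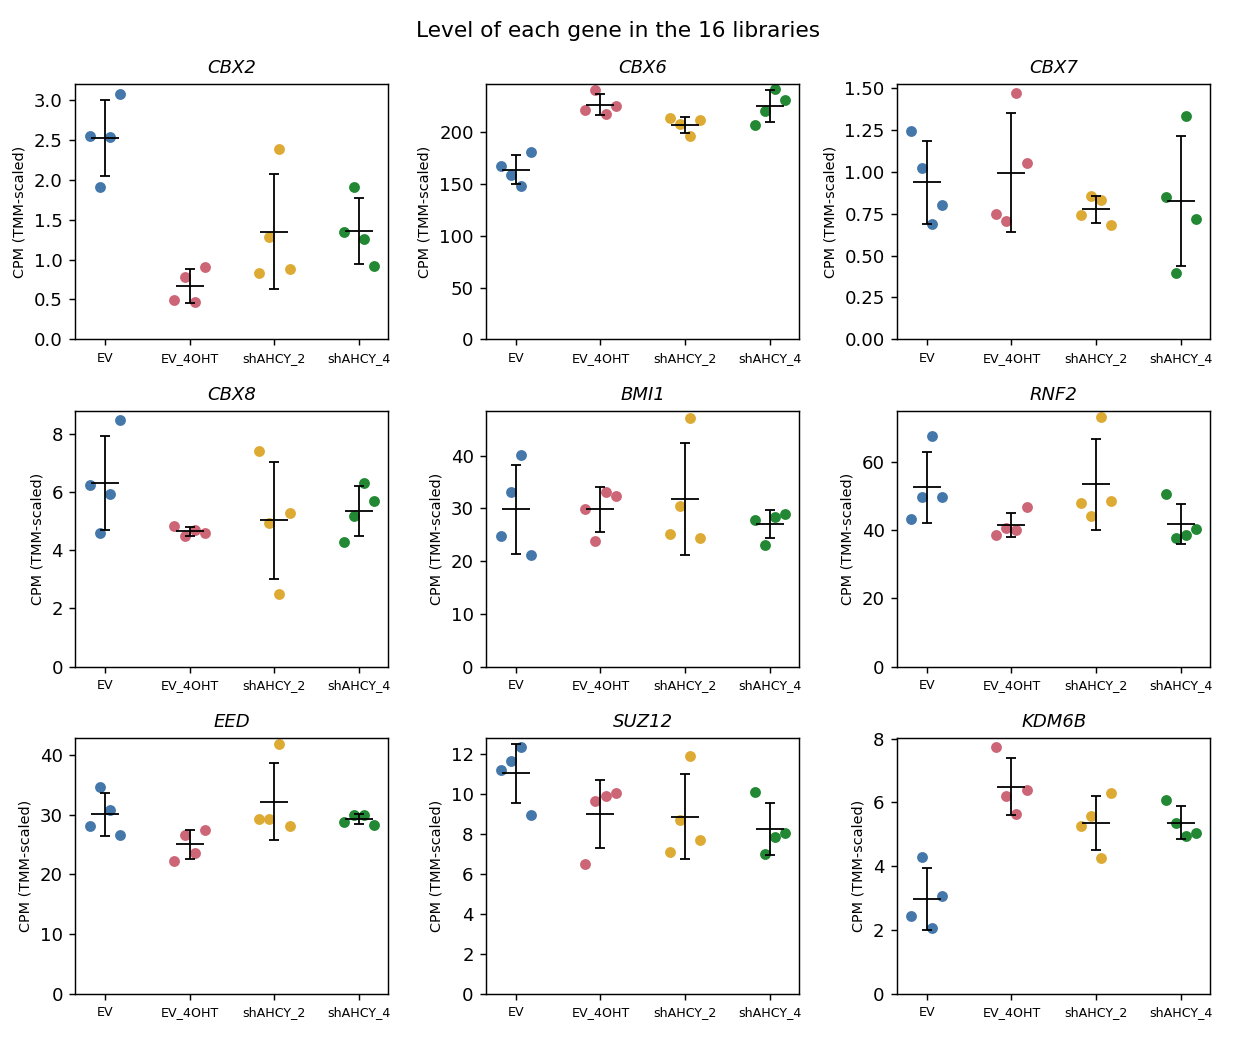
Level of each gene in every library, in CPM scaled by TMM factors (y axis, from 0), by group (x axis). Points are libraries, the long bar is the mean of 4 and whiskers are 1 SD. The 4 EV_4OHT libraries of CBX2 lie at 0.902 CPM or less and those of EV at 1.91 or more, while for KDM6B the order is the opposite, with EV at 4.30 or less and EV_4OHT at 5.62 or more.

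CBX proteins are the subunits through which canonical PRC1 reads the PRC2 mark, and a PRC1 complex holds one of them. CBX2, the member that also compacts nucleosomes, stood at 2.55, 1.91, 2.54 and 3.07 CPM in the EV libraries and at 0.499, 0.786, 0.469 and 0.902 CPM in the EV_4OHT libraries. The groups did not overlap, as for 48.0% of all genes. The log2 fold change was -1.92 ± 0.35 (SE, adjusted p = 8.89e-05). CBX2 is a gene of low counts, with 28 to 50 in the EV libraries and 6 to 12 in the EV_4OHT libraries, which limits the precision of its fold change. These are bulk libraries, in which fewer cells of a type and less RNA per cell cannot be told apart. The summed proliferation markers moved the same way as CBX2, and their part in its level was not tested. Without EV replicate 51 and shAHCY_2 replicate 59, the log2 fold change of CBX2 was -1.92 ± 0.36 (adjusted p = 5.02e-05).

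CBX6 was the most abundant of the CBX genes. Its EV libraries held 167, 159, 148 and 181 CPM, and its EV_4OHT libraries 222, 241, 217 and 225 CPM. Every EV_4OHT library was above every EV library. CBX6 rose by 0.47 ± 0.07 on the log2 scale (adjusted p = 1.27e-05), and by 0.41 ± 0.07 without the pair of libraries that stand apart.

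CBX7, a CBX protein known to repress INK4A in fibroblasts, was barely detected. Its 16 libraries held 5 to 22 counts, and its level was 0.939 ± 0.247 CPM in EV and 0.995 ± 0.354 in EV_4OHT. Its log2 fold change was 0.11 ± 0.36 (adjusted p = 0.819). The 95% interval ran from -0.59 to 0.81, so changes within it are not excluded at this depth. CBX8, which was also described as a repressor of INK4A, stood at 6.22, 4.57, 5.92 and 8.48 CPM in EV and at 4.82, 4.48, 4.69 and 4.59 CPM in EV_4OHT. The single EV library at 4.57 CPM lay within the EV_4OHT range. The log2 fold change of CBX8 was -0.44 ± 0.23 (adjusted p = 0.107). It passed the threshold without EV replicate 50, at -0.58, and also with library totals alone (-0.55), with the GC trend removed (-0.48) and without the pair of libraries that stand apart (-0.48).

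RNF2, the catalytic ubiquitin ligase of PRC1, stood at 43.2, 49.8, 67.6 and 49.9 CPM in EV and at 38.7, 40.8, 40.2 and 46.8 CPM in EV_4OHT. The EV library at 67.6 CPM is replicate 51. The log2 fold change of RNF2 was -0.34 ± 0.15 (adjusted p = 0.053), and it passed the threshold under 12 of the 26 alternative settings. Among these were leaving out EV replicate 49 (-0.46), EV_4OHT replicate 56 (-0.40), shAHCY_4 replicate 61 (-0.34) and any single shAHCY_2 library (-0.37 to -0.34). Without EV replicate 51 it was -0.20 (adjusted p = 0.233). BMI1, the PCGF protein first known as a repressor of INK4A, stood at 24.8, 33.1, 40.1 and 21.2 CPM in EV and at 29.8, 23.8, 33.2 and 32.3 CPM in EV_4OHT. The EV range enclosed the EV_4OHT range. The log2 fold change of BMI1 was -0.00 ± 0.19 (adjusted p = 0.994), with a 95% interval from -0.37 to 0.37, and 0.17 ± 0.13 without the pair of libraries that stand apart (adjusted p = 0.281). COMMD3, the gene next to BMI1 on the same chromosome, stood at 76.8 ± 15.4 CPM in EV and 65.9 ± 4.63 in EV_4OHT.

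EED, the PRC2 subunit that binds the methylated histone tail, stood at 28.2, 34.8, 30.8 and 26.6 CPM in EV and at 22.3, 26.7, 23.6 and 27.5 CPM in EV_4OHT. The groups overlapped between 26.6 and 27.5 CPM. Its log2 fold change was -0.26 ± 0.12 (adjusted p = 0.0685), and it passed the threshold under 7 alternative settings, among them without EV replicate 49, EV replicate 52 or shAHCY_2 replicate 59. SUZ12, the scaffold subunit of PRC2, stood at 11.2, 11.7, 12.4 and 8.98 CPM in EV and at 6.48, 9.66, 9.91 and 10.1 CPM in EV_4OHT. Its log2 fold change was -0.29 ± 0.17 (adjusted p = 0.159). SUZ12 has a near-identical pseudogene, SUZ12P1, at 1.94 ± 0.586 CPM in EV and 1.14 ± 0.227 in EV_4OHT, so the split of reads between them is uncertain.

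KDM6B rose in senescence. Its EV libraries held 2.43, 4.30, 2.06 and 3.07 CPM, and its EV_4OHT libraries 7.73, 6.21, 5.62 and 6.39 CPM. The groups did not overlap, and the log2 fold change was 1.14 ± 0.20 (adjusted p = 5.27e-05). Its counts ran from 39 to 93 over the 16 libraries. Its lowest EV value was in replicate 51, and without the pair of libraries that stand apart the change was 0.98 ± 0.20 (adjusted p = 0.000149).

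**Figure D2:**
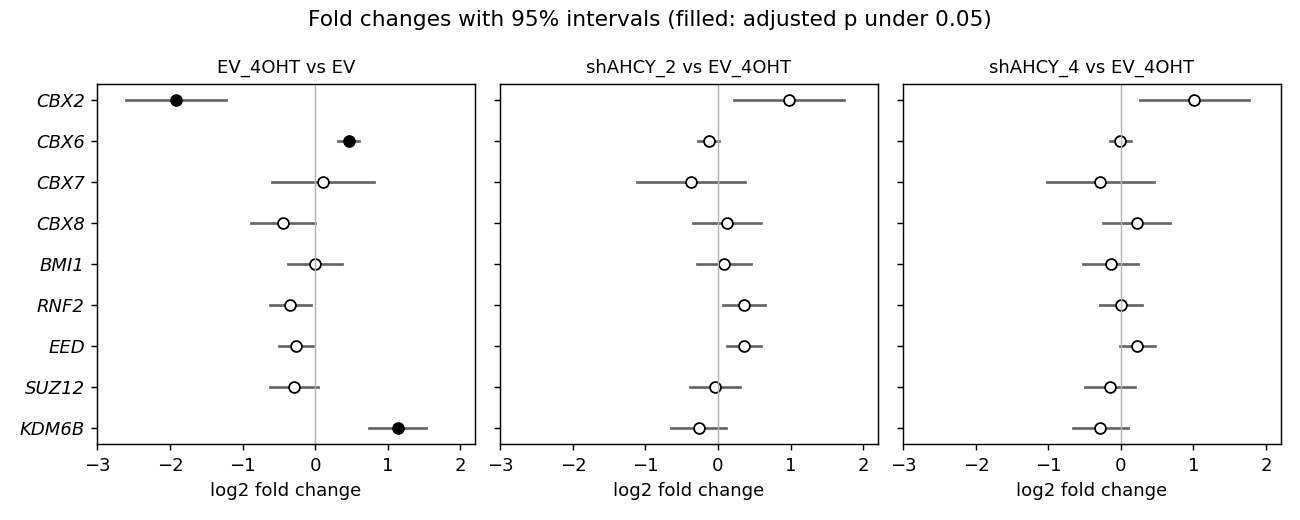
Log2 fold change of each gene (x axis) in EV_4OHT against EV and in each hairpin group against EV_4OHT. Points are the fitted values, lines are 95% intervals, and filled points have an adjusted p under 0.05. Filled points appear for CBX2 (-1.92), CBX6 (0.47) and KDM6B (1.14) in the left panel, and the points of the other panels are open.

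The hairpin groups were then set against EV_4OHT, the senescent control that lacks a hairpin. Of the 9 genes, 0 passed the threshold with shAHCY_2, where 6.98% of all genes passed, and 0 with shAHCY_4, where 14.4% passed. DESeq2 and limma-voom also called 0 with either hairpin. The shares of all genes called higher and lower were 3.91% and 3.07% with shAHCY_2 and 7.58% and 6.86% with shAHCY_4. At an unadjusted p under 0.05 in edgeR there were 3 with shAHCY_2 (CBX2, RNF2 and EED), against 21.8% of all genes, and 1 with shAHCY_4 (CBX2), against 27.6%. The median log2 fold change over the 9 genes was 0.08 with shAHCY_2 and -0.01 with shAHCY_4, beside 0.01 over all genes with each.

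CBX2 stood at 0.833, 1.29, 2.39 and 0.888 CPM with shAHCY_2 and at 1.34, 1.91, 1.26 and 0.915 CPM with shAHCY_4. All 4 shAHCY_4 libraries were above the highest EV_4OHT library (0.902 CPM), the lowest of them by little, and 2 of the 4 shAHCY_2 libraries were. The log2 fold change against EV_4OHT was 0.98 ± 0.39 with shAHCY_2 (adjusted p = 0.136) and 1.01 ± 0.38 with shAHCY_4 (adjusted p = 0.083). The 95% intervals ran from 0.22 to 1.74 and from 0.26 to 1.77. The value with shAHCY_2 rests in part on replicate 59, at 2.39 CPM, without which it was 0.60 ± 0.40 (adjusted p = 0.443). The value with shAHCY_4 passed the threshold when EV replicate 51 and shAHCY_2 replicate 59 were both left out (1.02, adjusted p = 0.0492). The proliferation markers moved in the same direction with both hairpins, and their part was not tested.

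EED stood at 29.3, 29.4, 41.9 and 28.2 CPM with shAHCY_2 and at 28.9, 30.0, 30.0 and 28.3 CPM with shAHCY_4. All 8 values were above the highest EV_4OHT value of 27.5 CPM. Ranges that do not overlap were found for 15.0% of all genes with shAHCY_2 and 23.3% with shAHCY_4. The log2 fold change of EED was 0.36 ± 0.12 with shAHCY_2 (adjusted p = 0.078) and 0.23 ± 0.12 with shAHCY_4 (adjusted p = 0.237). Without replicate 59 the first value was 0.21 ± 0.11 (adjusted p = 0.288), and with library totals alone it passed the threshold at 0.39 (adjusted p = 0.0417). RNF2 stood at 48.1, 44.1, 73.3 and 48.5 CPM with shAHCY_2 and at 50.7, 37.9, 38.5 and 40.5 CPM with shAHCY_4. Its log2 fold change was 0.36 ± 0.15 with shAHCY_2 (adjusted p = 0.153) and 0.00 ± 0.15 with shAHCY_4 (adjusted p = 0.992). The first passed the threshold with no filter on low counts, at 0.35 (adjusted p = 0.0343), and was 0.17 ± 0.12 without replicate 59 (adjusted p = 0.488).

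KDM6B stood at 5.27, 5.58, 4.25 and 6.28 CPM with shAHCY_2 and at 6.09, 5.34, 4.96 and 5.03 CPM with shAHCY_4. Both ranges overlapped that of EV_4OHT, which began at 5.62 CPM. Its log2 fold change was -0.26 ± 0.19 (adjusted p = 0.451) and -0.28 ± 0.19 (adjusted p = 0.375), with 95% intervals from -0.64 to 0.12 and from -0.66 to 0.10. CBX6 stood at 213, 208, 196 and 211 CPM with shAHCY_2, all below the EV_4OHT libraries, and at 207, 221, 242 and 231 CPM with shAHCY_4, of which 207 lay below and 242 above the EV_4OHT range. Its log2 fold change was -0.13 ± 0.07 (adjusted p = 0.322) and -0.01 ± 0.07 (adjusted p = 0.965). The narrow 95% intervals of CBX6 ran from -0.27 to 0.02 and from -0.15 to 0.14.

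CBX7, CBX8, BMI1 and SUZ12 overlapped with EV_4OHT in both hairpin groups. CBX8 stood at 7.40, 4.93, 2.49 and 5.26 CPM with shAHCY_2 and at 4.26, 5.18, 6.29 and 5.69 CPM with shAHCY_4. BMI1 stood at 25.1, 30.5, 47.2 and 24.4 CPM and at 27.9, 23.1, 28.3 and 28.9 CPM. SUZ12 stood at 7.12, 8.72, 11.9 and 7.72 CPM and at 10.1, 7.01, 7.84 and 8.04 CPM. In shAHCY_2 the highest BMI1 and SUZ12 values and the lowest CBX8 value were all in replicate 59. CBX7 averaged 0.778 ± 0.0809 CPM with shAHCY_2 and 0.825 ± 0.388 with shAHCY_4.

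Between the hairpins, 0 of the 9 genes passed the threshold in edgeR, DESeq2 or limma-voom, where 1.24% of all genes passed in edgeR (0.54% higher and 0.702% lower with shAHCY_4). The ranges were apart for 0 of the 9 genes and for 10.9% of all genes. At an unadjusted p under 0.05, which 17.9% of all genes reached, there was 1, RNF2, lower with shAHCY_4 by -0.35 ± 0.15 on the log2 scale (adjusted p = 0.215). The difference in CBX2 between the hairpins was 0.03 ± 0.35, with a 95% interval from -0.66 to 0.73.

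Against EV, CBX2, CBX6 and KDM6B passed the threshold with each hairpin as well. CBX2 fell to 53.5% of its EV level with shAHCY_2 (-0.94 ± 0.33, adjusted p = 0.0211) and to 53.8% with shAHCY_4 (-0.90 ± 0.32, adjusted p = 0.024). CBX6 rose to 127% and 137% (adjusted p = 0.000557 and 1.8e-05). KDM6B rose to 180% and 181% (adjusted p = 0.00118 and 0.00141). In all, 3 of the 9 genes passed with shAHCY_2, beside 48.1% of all genes (24.5% higher, 23.6% lower), and 4 with shAHCY_4, beside 51.2% (25.4% higher, 25.8% lower). The ranges were apart in 1 of the 9 genes with shAHCY_2 (39.1% of all genes) and 2 with shAHCY_4 (44.8%). The fourth was SUZ12, which fell by 0.44 ± 0.17 on the log2 scale with shAHCY_4 (adjusted p = 0.0401). With shAHCY_2, SUZ12 gave -0.33 ± 0.17 (adjusted p = 0.123), and it passed without shAHCY_2 replicate 59 (-0.49, adjusted p = 0.0191), without both libraries that stand apart (-0.43, 0.0451) and with the GC trend removed (-0.33, 0.0455). RNF2 gave -0.34 ± 0.15 with shAHCY_4 (adjusted p = 0.0586) and passed under 9 of the 26 alternatives, among them without EV replicate 49 (-0.45), shAHCY_2 replicate 59 (-0.34) or shAHCY_4 replicate 61 (-0.43). The CBX2 calls were lost without EV replicate 52 (-0.83 and -0.80), with shAHCY_2 also without replicates 57 (-0.80) or 60 (-0.79), and with shAHCY_4 also without replicates 63 (-0.87) or 64 (-0.75). The SUZ12 call was lost without any of EV replicates 49 (-0.46), 50 (-0.43) and 51 (-0.38) and shAHCY_4 replicates 62 (-0.37), 63 (-0.42) and 64 (-0.44), without both libraries that stand apart (-0.38, adjusted p = 0.057) and with no filter on low counts (-0.43). These comparisons share the EV libraries with each other and with EV_4OHT against EV, so they are not independent.

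The genes were then read in the libraries that stand apart, by base composition. Transcripts of BMI1, RNF2, EED and SUZ12 have a GC content of 33.0% to 39.1%, and those of the CBX genes and KDM6B 57.5% to 62.4%. In shAHCY_2 replicate 59, BMI1 stood at 177%, RNF2 at 156%, SUZ12 at 152% and EED at 145% of the mean of the other 3 libraries of the group. In the same library CBX8 stood at 42.5%, KDM6B at 74.5% and CBX6 at 92.8%, but CBX7 at 109% and CBX2 at 238%. In EV replicate 51, BMI1 stood at 152%, RNF2 at 142%, SUZ12 at 117% and EED at 103%, against 63.1% for KDM6B, 67.2% for CBX7, 87.4% for CBX6, 92.1% for CBX8 and 101% for CBX2. With each library's GC trend removed, RNF2 gave -0.22 ± 0.09 in EV_4OHT against EV (adjusted p = 0.0454) and 0.23 ± 0.09 with shAHCY_2 against EV_4OHT (adjusted p = 0.128). EED then gave -0.10 ± 0.10 (adjusted p = 0.398) and 0.16 ± 0.10 (adjusted p = 0.341).

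**Figure D3:**
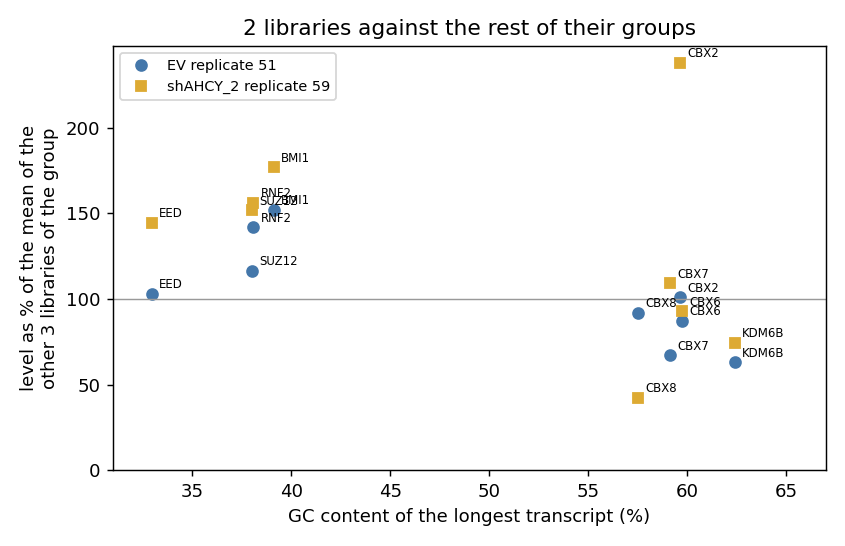
Level of each gene in EV replicate 51 and shAHCY_2 replicate 59 as a percentage of the mean of the other 3 libraries of the same group (y axis), against the GC content of its longest transcript (x axis, percent). The 4 genes of low GC content lie at or above 103%, and of the genes of high GC content CBX2 in shAHCY_2 replicate 59 lies at 238%.

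**Figure D4:**
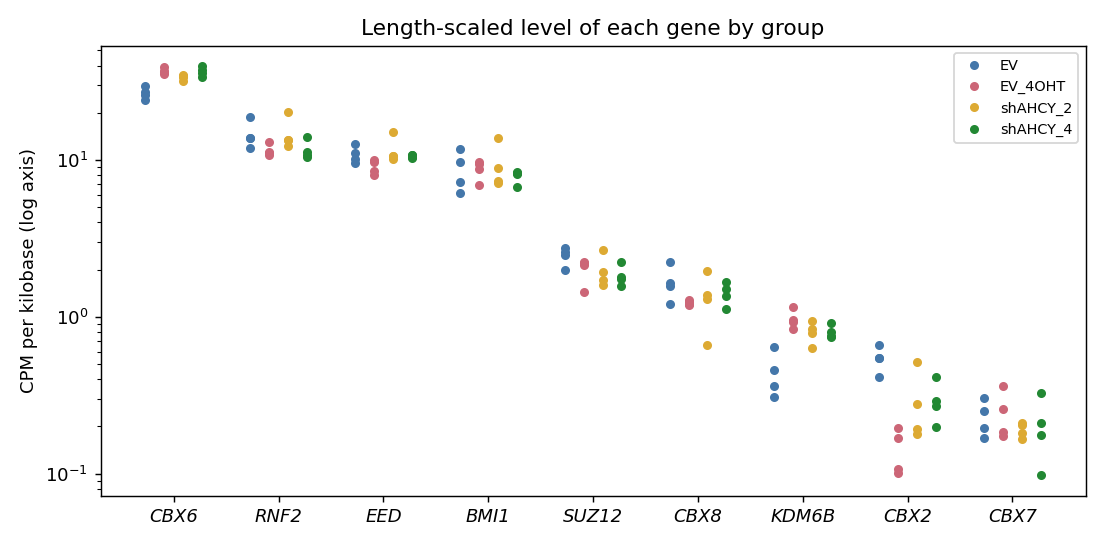
Level of each gene per kilobase of its longest transcript (y axis, CPM per kilobase on a log axis) in the 16 libraries, coloured by group. CBX6 lies highest in every library, at 24.1 to 39.6 CPM per kilobase, and CBX2 crosses below KDM6B in the 3 groups given 4OHT.

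Divided by the length of the longest transcript, levels were set side by side between genes. The comparison is rough, because the transcripts in use are not known and GC content was not corrected for. CBX6 stood at 26.7 ± 2.30 CPM per kilobase in EV and 37.0 ± 1.66 in EV_4OHT. RNF2 came next at 14.6 ± 2.90 and 11.5 ± 0.989 CPM per kilobase, then EED at 10.9 ± 1.29 and 9.05 ± 0.899, and BMI1 at 8.70 ± 2.48 and 8.69 ± 1.24. In EV the libraries of RNF2 overlapped with those of EED, and EED with BMI1. Of these pairs, EED and BMI1 also overlapped in EV_4OHT, and RNF2 and EED did not. SUZ12 stood lower, at 2.46 ± 0.327 and 2.01 ± 0.380 CPM per kilobase, but its split of reads with SUZ12P1 is uncertain. CBX8 stood at 1.66 ± 0.428 and 1.22 ± 0.0386. The lowest 3 changed places. In EV, CBX2 (0.542 ± 0.102 CPM per kilobase) and KDM6B (0.442 ± 0.147) overlapped and lay above CBX7 (0.230 ± 0.0606). In EV_4OHT, KDM6B (0.966 ± 0.133) lay above CBX7 (0.244 ± 0.0867), and CBX7 overlapped with CBX2 (0.143 ± 0.0460). With both hairpins KDM6B came first at 0.797 ± 0.125 and 0.798 ± 0.0770, and CBX2 (0.290 ± 0.155 and 0.292 ± 0.0892) overlapped with CBX7.

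The other Polycomb genes were counted from lists, to set the 9 genes beside the rest of the machinery. Over 38 tested genes of PRC1 and PRC2, the 8 subunits above included, 7 rose and 13 fell in EV_4OHT against EV, or 52.6%, close to the 53.5% of all genes. The split was 7 and 16 with upper-quartile factors, 7 and 19 with library totals alone and 9 and 15 with the GC trend removed. Of 10 other PRC2 genes, 1 rose and 6 fell (median log2 fold change -0.43), beside 26.7% of all genes called higher and 26.8% lower. EZH2, the main catalytic subunit in dividing cells, fell from 26.2 ± 0.882 to 6.63 ± 0.772 CPM (-1.98 ± 0.12, adjusted p = 5.59e-12), while EED and SUZ12, which sit beside it, did not pass. EZH1, the other catalytic subunit, also passed, from 20.2 ± 2.58 to 15.5 ± 0.779 CPM (log2 fold change -0.38). That call was lost without EV replicate 49 (-0.32) or EV_4OHT replicate 54 (-0.35). PHF19, which guides PRC2 to chromatin, fell by 1.15 ± 0.11 on the log2 scale. The histone-binding subunits RBBP7 and RBBP4 fell by 0.75 ± 0.07 and 0.47 ± 0.07. JARID2, a cofactor of PRC2, rose by 0.48 ± 0.15.

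The counts that follow stand beside 26.7% of all genes called higher and 26.8% called lower. Of 6 further canonical PRC1 subunits, 1 rose and 2 fell. PHC2, a polyhomeotic subunit, rose by 1.07 ± 0.13 on the log2 scale. SCMH1 fell by 0.96 ± 0.14 and SCML2 fell by 2.32 ± 0.43. PHC3 gave 0.17 ± 0.10 (adjusted p = 0.165). Of 14 genes of the variant PRC1 complexes, which lack a CBX protein, 4 rose and 4 fell (4 and 6 with library totals alone). PCGF1 and PCGF3, which take the place of BMI1 there, rose by 1.02 ± 0.13 and 0.56 ± 0.09, while PCGF5 fell by 0.88 ± 0.09 and KDM2B, which binds CpG islands, fell by 0.53 ± 0.13. Of 5 other erasers of Polycomb marks, 0 passed in edgeR, and 2 were higher with the GC trend removed. BAP1, a deubiquitinase of H2A, gave 0.24 ± 0.14 (adjusted p = 0.157), ASXL2 0.23 ± 0.11 (0.0831), ASXL1 -0.15 ± 0.14 (0.362) and USP16 0.10 ± 0.12 (0.509). KDM6A, the other demethylase of the PRC2 mark, gave -0.03 ± 0.13 (0.879).

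**Figure D5:**
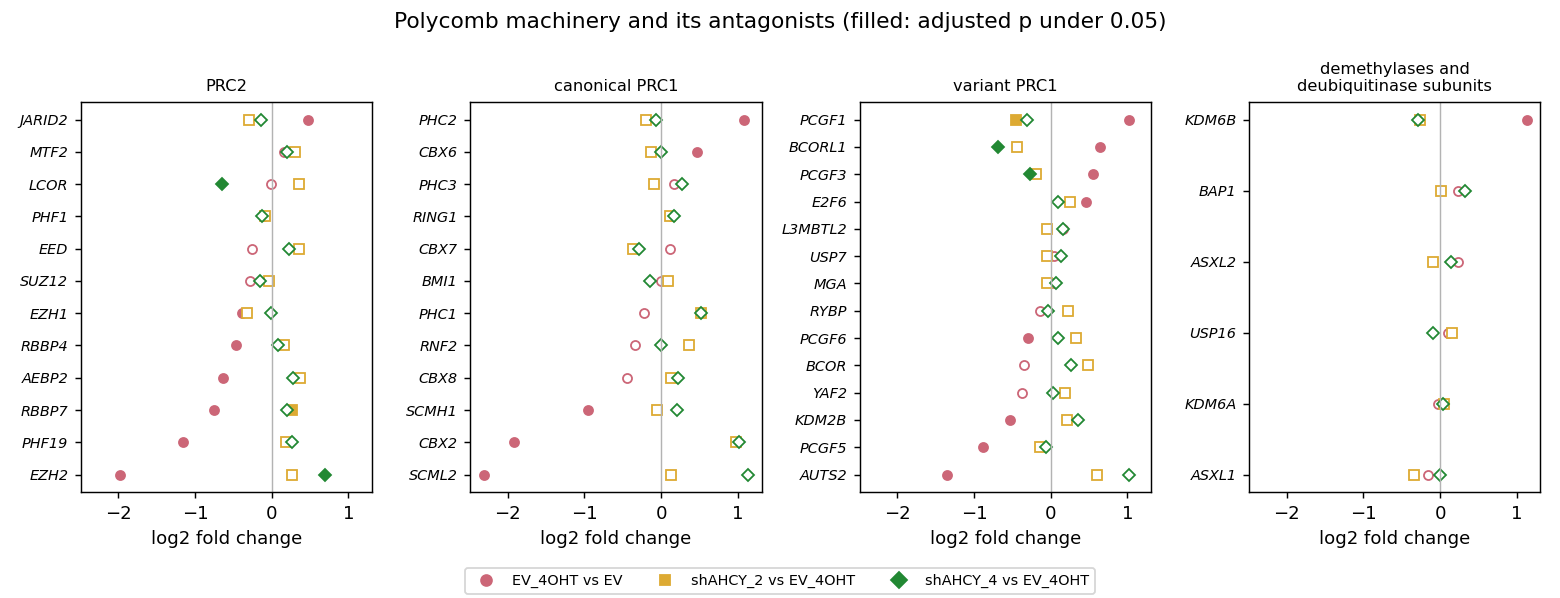
Log2 fold change (x axis) of PRC2, canonical PRC1 and variant PRC1 genes and of erasers of their marks, in EV_4OHT against EV (circles) and in shAHCY_2 (squares) and shAHCY_4 (diamonds) against EV_4OHT. Filled marks have an adjusted p under 0.05. EZH2 (-1.98), CBX2 (-1.92) and SCML2 (-2.32) lie farthest to the left and KDM6B (1.14) farthest to the right in EV_4OHT against EV.

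The shares of these genes called with the hairpins were near those of all genes. Of the 38 PRC1 and PRC2 genes, 2 passed with shAHCY_2 (5.26%, beside 6.98% of all genes) and 4 with shAHCY_4 (10.5%, beside 14.4%). With shAHCY_2, 1 was higher and 1 lower, or 3 and 0 with library totals alone. With shAHCY_4, 1 was higher and 3 lower, but 4 and 1 with library totals alone, and 5 and 4 without EV replicate 51 and shAHCY_2 replicate 59. With shAHCY_4, EZH2 rose by 0.69 ± 0.13 on the log2 scale (adjusted p = 0.000754), to 10.8 ± 1.19 CPM. With shAHCY_2 it gave 0.27 ± 0.13 (adjusted p = 0.24), at 7.96 ± 0.984 CPM. The difference in EZH2 between the hairpins, 0.42 ± 0.13, did not pass (adjusted p = 0.0982). The other calls were RBBP7 (0.27) and PCGF1 (-0.45) with shAHCY_2, and LCOR (-0.65), PCGF3 (-0.26) and BCORL1 (-0.68) with shAHCY_4. The RBBP7 call was lost without EV_4OHT replicates 54 or 55 or shAHCY_2 replicate 57 (0.22 to 0.26), with no filter on low counts and with only the groups compared (0.27 each). The PCGF1 call was lost without any of EV_4OHT replicates 53, 54 and 56, shAHCY_2 replicates 58, 59 and 60 and shAHCY_4 replicate 63 (-0.49 to -0.35) and with library totals alone (-0.41). The PCGF3 call was lost without any of EV_4OHT replicates 53, 54 and 55, shAHCY_2 replicates 57, 58 and 60 and the 4 shAHCY_4 libraries (-0.29 to -0.22), with library totals alone (-0.21) and with no filter (-0.27). The BCORL1 call was lost without EV replicate 50, any EV_4OHT library or shAHCY_4 replicates 61, 62 or 64 (-0.73 to -0.57) or with library totals alone (-0.63), and the LCOR call without EV_4OHT replicate 55 (-0.55). Between the hairpins, 1 of the 38 genes passed (2.63%, beside 1.24% of all genes): LCOR, lower with shAHCY_4 than with shAHCY_2. Its level was 35.5 ± 10.9 CPM with shAHCY_2 and 17.6 ± 0.628 with shAHCY_4, beside 27.6 ± 3.65 in EV_4OHT. This difference passed in all 26 alternatives, with log2 fold changes from -1.13 to -0.786. LCOR was counted here with the PRC2 genes, and a gene count cannot separate its transcripts. LCOR, BCORL1, JARID2, EZH1 and KDM6A are named although they fall outside the rule for named genes, and were chosen after their values were seen.

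The INK4 locus itself was measured beside its regulators. The level of CDKN2A was 30.8 ± 1.05 CPM in EV and 71.7 ± 4.77 CPM in EV_4OHT. With the hairpins it was 57.6 ± 1.40 CPM (shAHCY_2) and 55.8 ± 7.15 CPM (shAHCY_4). It rose by 1.22 ± 0.09 on the log2 scale in EV_4OHT and fell against EV_4OHT by 0.32 ± 0.09 with shAHCY_2 (adjusted p = 0.0286) and by 0.36 ± 0.09 with shAHCY_4 (adjusted p = 0.00718). The call with shAHCY_2 was lost under 8 alternative settings, in which CDKN2A stayed between -0.32 and -0.23: library totals alone, no filter on low counts, the GC trend removed, and leaving out any of EV_4OHT replicates 54, 55 and 56 or shAHCY_2 replicates 57 and 60. A gene count cannot separate the p16 and ARF transcripts of CDKN2A. CDKN2B, which encodes the neighbouring inhibitor p15, rose from 15.6 ± 0.905 to 219 ± 6.23 CPM (3.81 ± 0.12) and did not pass with either hairpin (-0.09 ± 0.10 and -0.12 ± 0.10, adjusted p = 0.636 and 0.5). MTAP, counted here with the INK4 locus, rose by 0.92 ± 0.12. The antisense RNA CDKN2B-AS1, which is known to bind Polycomb proteins, held 2 to 22 counts and gave -0.96 ± 0.47 (adjusted p = 0.0893). Reads carry no strand, so antisense and sense RNA cannot be told apart where they overlap.

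Of 9 other factors known to act at the locus, 2 rose in EV_4OHT, beside 26.7% of all genes, and 0 fell (2 fell with library totals alone): ETS2, an activator of p16 downstream of RAS, by 0.79 ± 0.08, and TBX3, a repressor of the locus, by 0.59 ± 0.09. ETS2 fell with both hairpins against EV_4OHT (-0.40 ± 0.08 and -0.43 ± 0.08, adjusted p = 0.00199 and 0.000688). ID1, an inhibitor of the ETS factors, fell with shAHCY_4 by 1.31 ± 0.13, lower than with shAHCY_2 by 0.93 ± 0.13 (log2 fold change -0.93, adjusted p = 0.000503). TBX3 rose with shAHCY_4 by 0.28 ± 0.09 (adjusted p = 0.0393), a call lost without any of EV_4OHT replicates 53, 54 and 56 and shAHCY_4 replicates 61, 62 and 64 (0.22 to 0.30) and with no filter (0.27). ZBTB7A, a repressor of ARF, did not pass in any of these comparisons, with 0.37 ± 0.18 in EV_4OHT (adjusted p = 0.0902).

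The genes whose log2 CPM followed that of each regulator most closely were sought over the 16 libraries, among 8514 genes. The libraries share 4 groups, and EV replicate 51 and shAHCY_2 replicate 59 are among them, so these Pearson correlations are a description only. CBX2 was nearest to HNRNPA1 (r = 0.91), CENPU (0.90) and TMEM35A (0.90). CBX6 was nearest to S100A16, TUSC2 and NTMT1 (each 0.97), and KDM6B to DNAL4 (0.94), CAMK1G (0.93) and RNF24 (0.93). For the subunits that did not pass in EV_4OHT against EV, the nearest genes were CMPK1 for BMI1 (0.94), APOO for RNF2 (0.93), SAMD9 for EED (0.89), MALAT1 for SUZ12 (0.90) and YIPF2 for CBX8 (0.88). CBX7, with the fewest counts, reached 0.68 with PLSCR4. CBX2 and CBX8 are neighbouring coding genes on chromosome 17, and of these CBX2 fell in EV_4OHT, while CBX8 gave -0.44 ± 0.23 on the log2 scale (adjusted p = 0.107).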

How the data were processed

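RNA was measured in 16 libraries, 4 per group. Per the labels' protocols, RNA came from a Trizol and column extraction and libraries from Smart-Seq2, which keeps no strand. Per the submitters' processing notes, CASAVA 1.8.2, TopHat2 2.0.11 and featureCounts 1.18.0 were used with hg19 or GRCh37; no annotation release or rule for multi-mapping reads is given in the sources used here. The authors deposited whole-number counts per gene, not normalized, for 62069 genes, with totals from 8236199 to 18235787 per library, which limits genes of low level such as CBX7. Sampling noise did not account for the differences within any of the 24 pairs of replicates.

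A symbol was found through the identifier for 39007 genes, and the rest held 0.635% of counts. Length and GC content are those of the longest GENCODE 29 transcript. edgeR 4.0.16 (R 4.3.3) fitted 1 quasi-likelihood model to all libraries after filterByExpr (13526 genes) with TMM factors, with two-sided tests, Benjamini-Hochberg adjustment and a threshold of 0.05; the fit was tested on simulated counts. Standard errors are the absolute log2 fold change over the square root of F. CPM were scaled by TMM factors.

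Alternatives were RLE and upper-quartile factors, library totals alone, DESeq2 1.42.0, limma-voom (limma 3.58.1), no filter, at least 10 counts in 8 libraries, a model of the compared groups alone, removal of each library's GC trend, and each library left out; leaving out EV replicate 51 and shAHCY_2 replicate 59 together was chosen after seeing the data. Named genes were the 9 regulators, AHCY, CDKN2A, CDKN2B, up to 4 genes per list with the smallest adjusted p in the first 3 comparisons, and the 3 most correlated genes per regulator (mean log2 CPM of at least 3); COMMD3 and SUZ12P1 were added as a neighbour and a near-copy. The 9 genes and the lists were chosen with earlier results of these data known. PCGF2 was not used here, and a planned comparison of CBX shares is not reported.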

Additional observations from a re-analysis of the deposited data

Results flagged for a closer look

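In the shAHCY_2 group, replicate 59 stood far above the other libraries in 2 genes: RNF2 was at 73.3 CPM there, with the next library at 48.5, and EED at 41.9 CPM, with the next at 29.4. The gap to the nearest library was 0.850 and 0.914 of the whole range of the group, above Dixon's 95% critical value for 4 samples. The same library had the strongest fall with GC content (rho = -0.535), and both transcripts are of low GC content. With the GC trend removed, the log2 fold change with shAHCY_2 against EV_4OHT was 0.23 for RNF2 and 0.16 for EED, beside 0.36 for each. In EV_4OHT, SUZ12 was lowest in replicate 53, at 6.48 CPM, with the next library at 9.66 and a gap of 0.884 of the range. In all, 36 groups of 4 values were examined and 3 were marked; chance marks about 1 group in 20.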

How the results depend on the processing

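Over 26 alternatives, the CBX2, CBX6 and KDM6B calls in EV_4OHT against EV were kept, at -2.10 to -1.79, 0.35 to 0.52 and 0.98 to 1.35. Of 1404 values of the 9 genes under an alternative, 1267 kept direction and side of the threshold, 14 lost a call, 39 gained one and 84 changed sign, 0 of them called in either setting. Of 40 calls of the other Polycomb and INK4 genes and AHCY in the first 4 comparisons, 30 held in every alternative and 0 changed sign. The cause of the changes was not tested. In EV_4OHT against EV, 5 of the 9 genes passed with upper-quartile factors, with only the groups compared, with the GC trend removed and with EV replicate 51 and shAHCY_2 replicate 59 left out, and 7 with library totals alone; leaving out single libraries gave 3 to 5. With shAHCY_2 against EV_4OHT, 1 passed with library totals alone and 1 with no filter, and with shAHCY_4, 1 passed without that pair of libraries. In shAHCY_4 against EV, leaving out single libraries gave 2 to 5. Of all genes in shAHCY_4 against EV_4OHT, 3136 passed with only the groups compared and 3059 without the pair, beside 1953. Between the hairpins 481 passed with DESeq2, 553 with no filter, 78 with only the groups compared, 612 with the GC trend removed, 272 without the pair and 69 to 328 without single libraries, beside 168. No paired analysis was possible because the replicate numbers in the titles are not shared between groups.

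Values that changed sign, all of them uncalled, were as follows on the log2 scale: with RLE factors, BMI1 0.0076 (EV_4OHT against EV), RNF2 -0.0024 (shAHCY_4 against EV_4OHT). With DESeq2, BMI1 0.0079 (EV_4OHT against EV). With limma-voom, BMI1 0.029 (EV_4OHT against EV), CBX7 -0.026 (shAHCY_4 against shAHCY_2), RNF2 -0.0087 (shAHCY_2 against EV), RNF2 -0.013 (shAHCY_4 against EV_4OHT). With no filter, BMI1 0.019 (EV_4OHT against EV), RNF2 -0.0069 (shAHCY_4 against EV_4OHT). With the GC trend removed, BMI1 0.12 (EV_4OHT against EV), BMI1 -0.039 (shAHCY_2 against EV_4OHT), CBX2 -0.076, EED 0.063, SUZ12 0.00074 (shAHCY_4 against shAHCY_2), EED 0.12 (shAHCY_4 against EV), RNF2 -0.014 (shAHCY_4 against EV_4OHT). With EV replicate 51 and shAHCY_2 replicate 59 left out, BMI1 0.17, CBX7 -0.026 (EV_4OHT against EV), BMI1 -0.16 (shAHCY_2 against EV_4OHT), BMI1 0.038 (shAHCY_4 against EV), BMI1 0.023, CBX8 -0.10, EED 0.019, SUZ12 0.054 (shAHCY_4 against shAHCY_2), EED -0.045, RNF2 -0.027 (shAHCY_2 against EV). With library totals alone, CBX6 0.049 (shAHCY_4 against EV_4OHT), CBX7 -0.00088 (EV_4OHT against EV), RNF2 -0.064 (shAHCY_2 against EV). With upper-quartile factors, RNF2 -0.026 (shAHCY_2 against EV), RNF2 -0.0034 (shAHCY_4 against EV_4OHT). With 10 counts in 8 libraries, RNF2 -0.0036 (shAHCY_4 against EV_4OHT). With only the groups compared, RNF2 -0.0066 (shAHCY_4 against EV_4OHT). Leaving out single libraries gave ranges that crossed zero for BMI1 -0.13 to 0.17, CBX7 -0.17 to 0.24 in EV_4OHT against EV, for BMI1 -0.16 to 0.25, EED -0.050 to 0.15, RNF2 -0.17 to 0.15 in shAHCY_2 against EV, for BMI1 -0.16 to 0.19, CBX8 -0.10 to 0.32, SUZ12 -0.20 to 0.047 in shAHCY_2 against EV_4OHT, for BMI1 -0.28 to 0.037, CBX7 -0.53 to 0.057, EED -0.10 to 0.023 in shAHCY_4 against EV, for BMI1 -0.33 to 0.015, CBX2 -0.20 to 0.41, CBX7 -0.27 to 0.32, CBX8 -0.11 to 0.33, EED -0.18 to 0.011, KDM6B -0.11 to 0.078, SUZ12 -0.21 to 0.048 in shAHCY_4 against shAHCY_2, for CBX6 -0.050 to 0.032, RNF2 -0.094 to 0.061 in shAHCY_4 against EV_4OHT.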
